A study of Sus scrofa with 6 samples.

Results

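The genes described here are those of the pig cytosolic translation machinery that the Affymetrix Pig Genome Array measured with at least 1 probe set of a single gene symbol. They are the ribosomal proteins (symbols starting RPL or RPS and a number), the initiation factors (EIF and a number) and the elongation factors EEF1 and EEF2, without the RPS6 kinases and the Y-linked EIF1AY. The rule found 101 genes among 6765 named ones, on 153 of 23999 probe sets, and the probe set with the highest mean over the 6 arrays stood for each gene. These are 59 ribosomal proteins (31 of the large subunit, 23 of the small subunit and 5 paralogues), 35 initiation factors, 6 elongation factors and RPS19BP1, which binds RPS19 and is no part of the ribosome. No EEF2 symbol was among them. Factors were counted by symbol. The elongation factors thus include EEF1E1, a scaffold of the tRNA synthetase complex, and EEF1AKMT1, an enzyme that methylates EEF1A. The initiation factors include the regulators EIF2AK2 and EIF4EBP2.

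Total RNA of 6 pig cell samples was measured, on 1 array each. The somatic samples were PEF, embryo fibroblasts, and PAFSC, stem cells from amniotic fluid. Beside them stood 4 induced pluripotent stem (iPS) lines, that is somatic cells reprogrammed to a pluripotent state, which the labels class by stage-specific embryonic antigens (SSEA) on the cell surface. The label of 30AC5 names SSEA1, those of iPSCs-w and iPF4-2 name SSEA3 with SSEA4, and that of PS24 names all 3 antigens. All cells were grown in DMEM with 15% FBS. The iPS lines were also kept on inactivated mouse embryo fibroblasts of ICR mice as feeder cells. The study set lines made in its own laboratory beside lines from others, and neither the origin of each line nor its reprogramming is given in the labels. No source says that the samples are repeat cultures of one another, so every p-value below measures only the spread between these samples.

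A ribosome reads mRNA on its small subunit and joins amino acids on its large subunit, and cells make the ribosomal proteins of both subunits in matched amounts. Initiation begins when eIF2 brings the initiator tRNA to the small subunit and eIF4F binds the cap of the mRNA. eIF3 holds the parts together during scanning, and eIF2B recharges eIF2 with GTP after each round. When eIF2 is phosphorylated under stress it blocks eIF2B, and initiation slows down. The eEF1 proteins then bring each further aminoacyl-tRNA to the ribosome. Pluripotent cells are known for fast growth and high ribosome production.

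The values are log2 values, and every probe set has its own zero, so a value can be compared between arrays and not between genes. The median over all probe sets was 0.70 in PAFSC and lay between -0.06 and 0.05 in the other 5 arrays. Values were far more spread in PAFSC, with an SD over probe sets of 2.01 against 0.61 to 0.81 elsewhere. The 3 array control genes with a probe set at each end of their mRNA differed between arrays as well. In PS24 the difference 5' minus 3' was low for all 3, at -2.03 for actin, -1.98 for ef1a and -1.70 for gapdh. In PAFSC the 3 disagreed, with 2.72 for actin, 3.66 for gapdh and -0.70 for ef1a, and a further pair of gapdh sets read -0.61 at the 5' end and 0.32 at the 3' end. The other 4 arrays had differences between -0.40 and 0.69. On the BioB control probe sets iPSCs-w stood apart, at -3.18 to -2.96. PEF and the other lines read -0.16 to 1.07 there, and PAFSC 2.07 to 2.16. What this means for the values of iPSCs-w was not tested. Most fibroblast markers fitted the PEF label, with a median over 11 measured genes of 4.45 in PEF, 1.95 in PAFSC and -0.69 to 0.20 in the iPS lines. COL3A1 and PDGFRB did not, at -0.0030 and -0.23 in PEF against iPS means of 0.29 and 0.09. In iPF4-2, LUM, POSTN and DCN read 3.77, 3.01 and 2.34, against at most 0.23 in the other lines. Of 11 pluripotency markers 5 were measured, and their median came to -0.13 in 30AC5 and 0.04 in PS24, below 1.93 in iPSCs-w and 1.26 in iPF4-2. POU5F1 (OCT4), a core pluripotency factor, had values of -0.50 in PEF, 1.09 in PAFSC, -0.07 in 30AC5, 0.07 in PS24, 3.61 in iPSCs-w and 3.68 in iPF4-2. Both SSEA1-labelled lines thus lay far below the other lines for this gene, although the labels call all 4 pluripotent. The number of arrays limits the precision of everything below.

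Ribosomal protein mRNAs were nearly level in every sample except PAFSC. Over the 5 other arrays, the difference between the highest and the lowest array had a median of 0.29 over the 59 ribosomal proteins, against 0.69 over the 41 initiation and elongation factors and 0.92 over all probe sets. The range was under 0.5 for 40 of 59 ribosomal proteins and 15 of 41 factors, where 17% of all probe sets stayed within it. With PAFSC included it was under 0.5 for 14 and 3 (0.942% of all probe sets). After quantile normalization the 5 arrays gave 34 ribosomal proteins and 5 factors, and the share of all probe sets under that setting is not given here. On the probe sets used, the small subunit was the most even, with 20 of 23 genes inside 0.5. In the large subunit 19 of 31 were, and of the 5 paralogues 1 was. These counts depend on the probe set used. RPL17 and RPL7 of the large subunit had SDs of 0.48 and 0.49, but 0.02 and 0.05 on another set. RPS6 and RPS12 of the small subunit had 0.44 and 0.59, but 0.01 and 0.03 on another set. Genes with 1 probe set were not counted by subunit. The 240 probe sets with the lowest SD, 1% of all, included 19 ribosomal proteins and 3 factors. Members with 1 probe set, where no choice was made, gave 30 of 37 ribosomal proteins and 11 of 25 factors inside 0.5. The zero of each probe set hides its brightness, so whether bright probe sets vary less on these arrays was not tested.

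**Figure D1:**
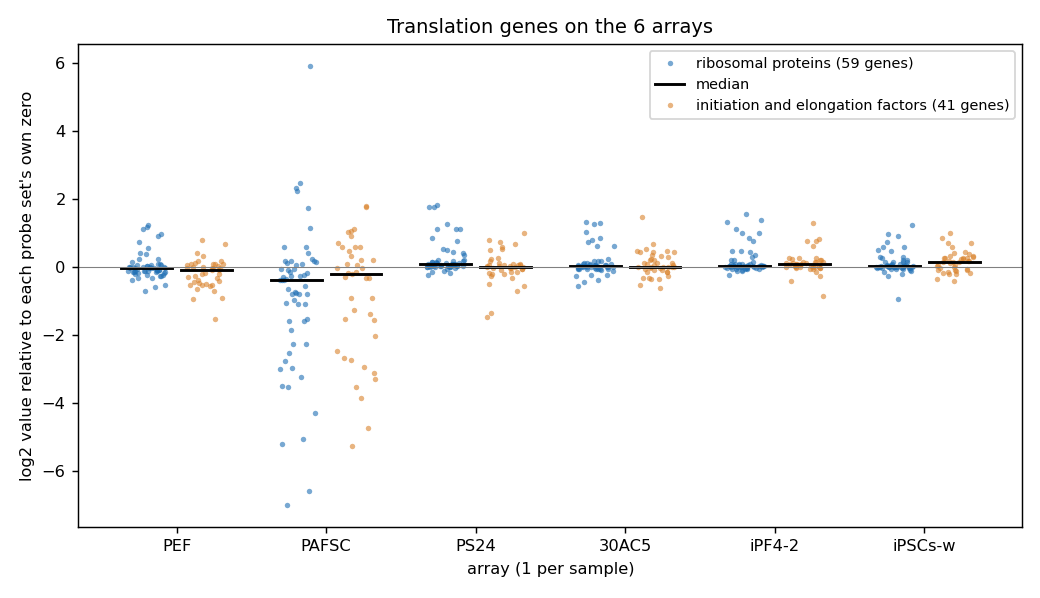
Each point is 1 gene, drawn at its log2 value relative to its probe set's own zero (vertical axis) on each of the 6 arrays (horizontal axis), with ribosomal proteins in blue, initiation and elongation factors in orange and the median as a black bar. Most ribosomal proteins sit close to 0 on 5 arrays, while in PAFSC they run from -7.00 to 5.91.

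The members that stand for this evenness were picked after their values were seen. RPL19, a large subunit protein that forms a bridge to the small subunit, had values of -0.02 in PEF, 0.13 in PAFSC, -0.02 in 30AC5, 0.01 in PS24, -0.02 in iPSCs-w and -0.01 in iPF4-2. It had the second lowest SD of all probe sets over the 5 arrays. RPL11, which binds 5S ribosomal RNA and can hold back the p53 regulator MDM2, had values of -0.02 in PEF, -0.05 in PAFSC, -0.0039 in 30AC5, 0.02 in PS24, -0.0014 in iPSCs-w and 0.03 in iPF4-2. Here PAFSC was no exception. RPS2, a small subunit protein, read 0.06 in PEF, -0.38 in PAFSC, 0.02 in 30AC5, -0.0022 in PS24, -0.02 in iPSCs-w and 0.03 in iPF4-2, with PAFSC a little below the rest. RPS27A, made as a fusion of ubiquitin and a small subunit protein, was similar over the 5 arrays at 0.07 in PEF, -0.79 in PAFSC, 0.09 in 30AC5, 0.09 in PS24, 0.01 in iPSCs-w and 0.05 in iPF4-2, but on its other set 30AC5 was low, at -1.07. RPL27A was as even as these over 5 arrays and clearly lower in PAFSC, at 0.01 in PEF, -2.26 in PAFSC, 0.001 in 30AC5, 0.01 in PS24, -0.05 in iPSCs-w and -0.001 in iPF4-2.

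**Figure D2:**
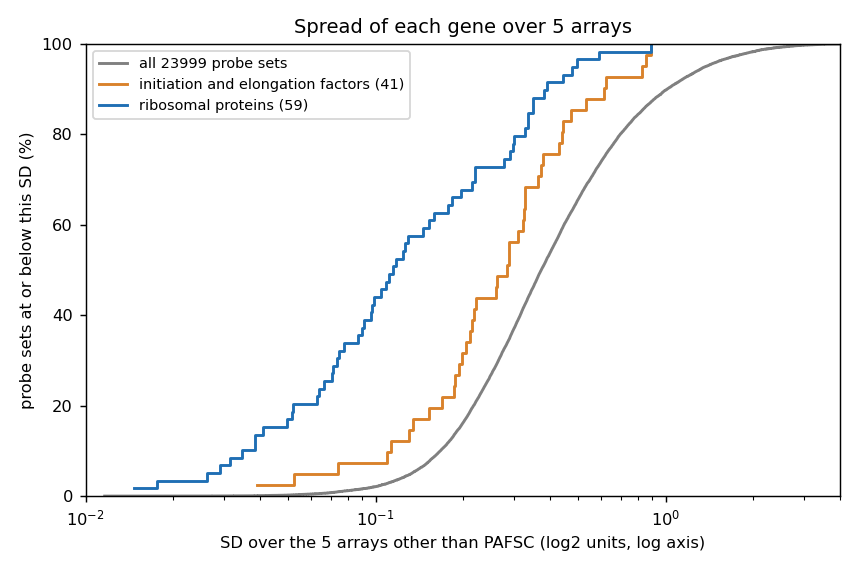
Share of probe sets (vertical axis, %) whose SD over the 5 arrays other than PAFSC is at or below the value on the horizontal axis (log2 units, log axis), for ribosomal proteins, for initiation and elongation factors and for all 23999 probe sets. The ribosomal protein curve lies to the left, with a median SD of 0.11 against 0.28 for the factors and 0.37 for all probe sets.

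On the probe sets used, some ribosomal proteins departed from this pattern: 6 of 59 had a range above 1 over the 5 arrays, as 45.4% of all probe sets did. RPL37, a large subunit protein, had values of 1.22 in PEF, -0.07 in PAFSC, 0.18 in 30AC5, 1.12 in PS24, -0.95 in iPSCs-w and 0.07 in iPF4-2. PEF and PS24 were highest, and iPSCs-w was lowest. RPS12, a protein of the small subunit's head, had values of 0.0036 in PEF, 2.46 in PAFSC, 0.05 in 30AC5, 0.09 in PS24, 1.23 in iPSCs-w and 0.98 in iPF4-2. Its iPF4-2 and iPSCs-w values stood about 1 above those of PEF, PS24 and 30AC5, but its other probe set stayed between -0.09 and 0.02 on all 6 arrays. RPL7, of the large subunit, read 0.14 in PEF, -0.80 in PAFSC, -0.40 in 30AC5, -0.07 in PS24, 0.90 in iPSCs-w and -0.12 in iPF4-2. Only iPSCs-w was high on this probe set, and on the other set of RPL7 iPSCs-w was the lowest of the 5 arrays, at 0.05 against 0.06 to 0.17. The rest of the 6 were RPL17, RPS6 and RPL34. Another probe set of each had an SD of 0.02, 0.01 and 0.13 over the 5 arrays. RPL37 had no other probe set.

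In PAFSC, where all probe sets were widely spread, many ribosomal proteins were no longer level with PEF. The difference PAFSC minus PEF, 1 array each and given here without a test, had a median of -0.66 over the ribosomal proteins and -0.16 over the factors, against 0.72 over all probe sets. PAFSC was lower than PEF by more than 1 for 21 of 59 ribosomal proteins and 13 of 41 factors (25.7% of all probe sets), and higher by more than 1 for 5 and 4 (44.6%). When each array was centred on its own median, which takes 0.75 off every difference, the ribosomal proteins split into 37 lower and 4 higher and the factors into 19 and 1, where 34.6% of all probe sets were lower and 26.9% higher. After quantile normalization 4 factors were lower by more than 1, and the share of all probe sets under that setting is not given here. PAFSC was the lowest of the 6 arrays for 40 of 59 ribosomal proteins and 19 of 41 factors, as for 27.7% of all probe sets, and the highest for 13 and 11 (50.1%). In bulk RNA, fewer cells of a kind and less RNA per cell cannot be told apart. PAFSC also had the widest spread of values over all probe sets and control genes whose 5' minus 3' differences disagreed, and their part in these differences was not tested.

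Among large subunit proteins, RPL22 was furthest down. Its values were -0.10 in PEF, -7.00 in PAFSC, -0.02 in 30AC5, 0.03 in PS24, -0.01 in iPSCs-w and 0.01 in iPF4-2, a difference PAFSC minus PEF of -6.90, while the 5 other arrays spanned 0.13. RPL31, which lies at the exit of the peptide tunnel, had values of -0.19 in PEF, -6.58 in PAFSC, 0.02 in 30AC5, 0.01 in PS24, -0.01 in iPSCs-w and -0.09 in iPF4-2, and its other probe set gave -7.06 in PAFSC. RPL29 followed with -0.04 in PEF, -5.07 in PAFSC, 0.0029 in 30AC5, 0.16 in PS24, 0.07 in iPSCs-w and 0.03 in iPF4-2. For each of these 3 genes PAFSC stood alone, far under 5 arrays that hardly differed. Opposite to them was RPL12, at the base of the stalk that binds elongation factors, with values of -0.02 in PEF, 5.91 in PAFSC, 0.60 in 30AC5, 0.77 in PS24, 0.02 in iPSCs-w and 0.43 in iPF4-2. This rests on 1 probe set: the other 2 of RPL12 gave -2.29 and 0.32 in PAFSC. RPL9 was next above PEF, at 0.06 in PEF, 1.73 in PAFSC, 0.10 in 30AC5, 0.39 in PS24, 0.01 in iPSCs-w and 0.07 in iPF4-2, and of its other 2 probe sets both were lower in PAFSC than in PEF.

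In the small subunit PAFSC was lower than PEF by more than 1 for 6 of 23 genes. That share of 26.1% was near the 25.7% of all probe sets. PAFSC was higher by more than 1 for 3 genes (13%, against 44.6% of all probe sets). The genes named here had the lowest and the highest differences. RPS6, the ribosomal protein that S6 kinases phosphorylate downstream of mTOR, had values of 0.96 in PEF, -2.98 in PAFSC, 1.28 in 30AC5, 1.76 in PS24, 0.59 in iPSCs-w and 1.36 in iPF4-2, the lowest difference of the subunit at -3.94. RPS29 came next with -0.12 in PEF, -3.50 in PAFSC, -0.0021 in 30AC5, 0.08 in PS24, 0.02 in iPSCs-w and 0.0032 in iPF4-2. RPS12, given above, was 2.46 higher in PAFSC than in PEF. RPS25, which many viral internal ribosome entry sites need, had -0.14 in PEF, 2.23 in PAFSC, 0.11 in 30AC5, 0.09 in PS24, -0.16 in iPSCs-w and -0.06 in iPF4-2, but 2 other probe sets of it gave 0.15 and -0.04 in PAFSC. RPS15A, with a single probe set, had -0.0032 in PEF, 2.31 in PAFSC, 0.22 in 30AC5, -0.0019 in PS24, 0.13 in iPSCs-w and 0.47 in iPF4-2. PAFSC was thus the highest array for RPS15A without another probe set to compare.

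**Figure D3:**
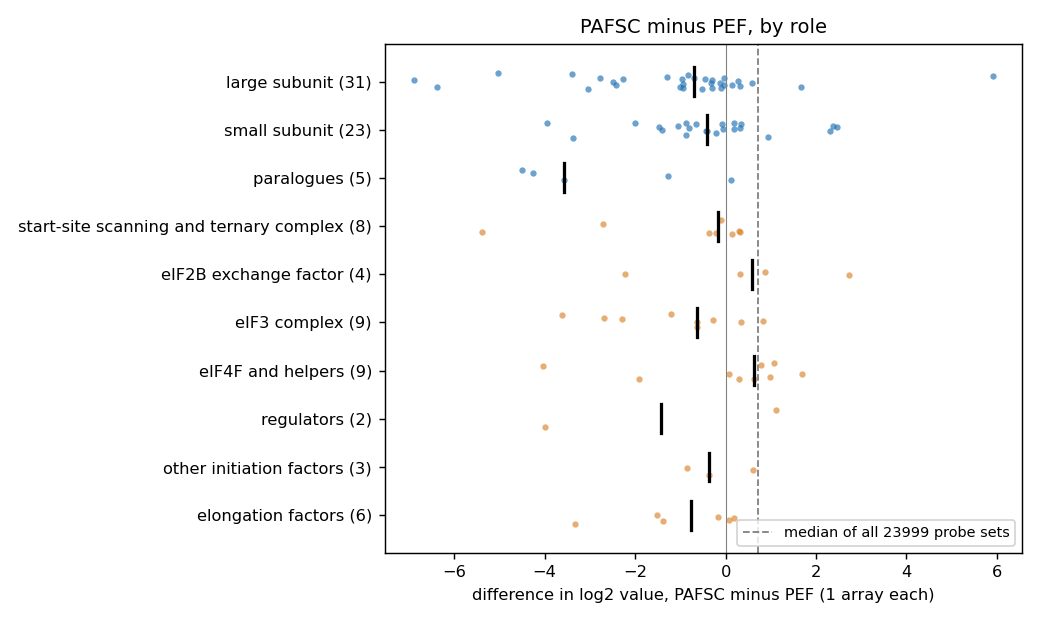
Difference in log2 value, PAFSC minus PEF (horizontal axis, 1 array each), for every ribosomal protein (blue) and initiation or elongation factor (orange), by role, with the median of each role as a black bar and the median of all 23999 probe sets as a dashed line. The paralogues have the lowest median of the ribosomal roles at -3.57, and single genes of the large subunit run from -6.90 to 5.93.

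The 5 paralogues are close relatives of core ribosomal proteins, some of which can take their place in the ribosome. RPL22L1, the paralogue of RPL22, had values of 0.56 in PEF, -3.01 in PAFSC, 0.18 in 30AC5, 0.35 in PS24, -0.28 in iPSCs-w and 0.45 in iPF4-2. Both RPL22 and RPL22L1 were lowest in PAFSC, and among the other 5 arrays RPL22L1 was highest in PEF and lowest in iPSCs-w while RPL22 was flat. RPL26L1 read -0.71 in PEF, -5.21 in PAFSC, 0.0043 in 30AC5, -0.19 in PS24, -0.0043 in iPSCs-w and 0.21 in iPF4-2, whereas RPL26 itself had 0.22 in PEF, -0.23 in PAFSC, -0.25 in 30AC5, 0.48 in PS24, -0.22 in iPSCs-w and -0.24 in iPF4-2. PEF and PAFSC were the 2 lowest arrays for RPL26L1, and not for RPL26. RPL7L1, which works in assembling the large subunit, had -0.03 in PEF, -4.29 in PAFSC, -0.23 in 30AC5, -0.12 in PS24, 0.19 in iPSCs-w and 0.03 in iPF4-2, so PAFSC alone was low. RPL36AL had -0.58 in PEF, -1.85 in PAFSC, -0.58 in 30AC5, 0.07 in PS24, 0.07 in iPSCs-w and -0.07 in iPF4-2, with PEF and 30AC5 equal and PAFSC below them. RPS27L, a target of p53, had -0.22 in PEF, -0.10 in PAFSC, 0.02 in 30AC5, 0.52 in PS24, 0.25 in iPSCs-w and 0.19 in iPF4-2, and its relative RPS27 had -0.03 in PEF, 0.17 in PAFSC, -0.07 in 30AC5, 0.03 in PS24, -0.11 in iPSCs-w and -0.07 in iPF4-2. Neither was low in PAFSC on these probe sets, but the other set of RPS27 gave -7.39 there against -1.62 in PEF. Of 12 pairs of related genes listed, both genes were measured for 7.

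Of the factors that start translation, the 8 for scanning and for delivery of the initiator tRNA differed most in PAFSC through 2 genes. EIF1AX, which keeps the small subunit open for scanning, had values of 0.10 in PEF, -5.28 in PAFSC, 1.47 in 30AC5, 0.48 in PS24, -0.10 in iPSCs-w and -0.86 in iPF4-2. PAFSC was lowest by far, also at -6.39 on the other set, while 30AC5 was the highest on this set only. EIF2A, which can deliver initiator tRNA outside the usual eIF2 route, had 0.02 in PEF, -2.69 in PAFSC, 0.67 in 30AC5, 0.68 in PS24, 0.39 in iPSCs-w and 0.62 in iPF4-2, with all 4 iPS lines above both somatic samples. EIF2D, which has a similar role, had -0.57 in PEF, -0.93 in PAFSC, 0.10 in 30AC5, 0.51 in PS24, 0.71 in iPSCs-w and -0.28 in iPF4-2, again with the iPS lines above both somatic samples. EIF2S1, the eIF2 subunit that stress kinases phosphorylate, read -0.31 in PEF, -0.17 in PAFSC, 0.35 in 30AC5, 0.05 in PS24, 0.26 in iPSCs-w and 0.20 in iPF4-2, and its partner EIF2S2 read 0.08 in PEF, -0.03 in PAFSC, 0.43 in 30AC5, -0.06 in PS24, 0.25 in iPSCs-w and -0.04 in iPF4-2. The iPS lines lay above both somatic samples for EIF2S1 and overlapped with them for EIF2S2. EIF5B, which joins the subunits, read 0.77 in PEF, 0.57 in PAFSC, 0.53 in 30AC5, 0.79 in PS24, 0.69 in iPSCs-w and 0.77 in iPF4-2. It was even on this probe set alone, since its other 2 sets gave -5.24 and -1.01 in PAFSC against 0.12 and 0.36 in PEF.

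For eIF2B the difference, iPS mean minus PEF, had a median of 0.69 over the 4 measured subunits. EIF2B3 read -0.91 in PEF, -0.05 in PAFSC, 0.12 in 30AC5, 0.10 in PS24, 0.10 in iPSCs-w and -0.07 in iPF4-2, so PEF stood apart from all other samples, PAFSC included. EIF2B2 read -0.50 in PEF, -2.73 in PAFSC, -0.10 in 30AC5, -0.09 in PS24, 0.38 in iPSCs-w and 0.09 in iPF4-2, with both somatic samples under the 4 lines. EIF2B1 read -0.94 in PEF, 1.79 in PAFSC, -0.02 in 30AC5, -1.37 in PS24, 0.59 in iPSCs-w and 0.25 in iPF4-2. PS24 and PEF were low and PAFSC was high for it, but its other probe set gave -4.52 in PAFSC. EIF2B4 read -0.0027 in PEF, 0.31 in PAFSC, -0.34 in 30AC5, 0.10 in PS24, 0.0027 in iPSCs-w and -0.16 in iPF4-2, with no array far from the others.

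For eIF3 the difference PAFSC minus PEF had a median of -0.64 over 9 subunits, of which PAFSC was the lowest array for 7. EIF3A, the largest subunit and a scaffold, had values of 0.08 in PEF, -3.55 in PAFSC, 0.06 in 30AC5, -0.05 in PS24, 0.13 in iPSCs-w and 0.26 in iPF4-2. EIF3B, a second scaffold subunit, had -0.43 in PEF, -3.11 in PAFSC, -0.01 in 30AC5, -0.28 in PS24, 0.43 in iPSCs-w and 0.01 in iPF4-2. In both, PAFSC lay more than 2 below PEF, and the other arrays were within 1 of each other. EIF3H had -0.65 in PEF, -1.27 in PAFSC, -0.0017 in 30AC5, 0.18 in PS24, -0.20 in iPSCs-w and 0.08 in iPF4-2, with PEF and PAFSC both under every iPS line. EIF3E stayed level at -0.04 in PEF, -0.33 in PAFSC, 0.20 in 30AC5, 0.04 in PS24, -0.22 in iPSCs-w and -0.05 in iPF4-2, and EIF3K at -0.27 in PEF, -0.91 in PAFSC, 0.01 in 30AC5, 0.02 in PS24, -0.19 in iPSCs-w and -0.01 in iPF4-2 was slightly lower in the somatic samples.

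The cap-binding group eIF4F went in both directions. EIF4E, the protein that binds the cap, had values of -0.71 in PEF, -4.74 in PAFSC, 0.19 in 30AC5, -0.22 in PS24, 0.29 in iPSCs-w and 0.26 in iPF4-2. Both somatic samples were below all 4 lines, PAFSC by far. EIF4E2, a relative that binds the cap and mostly represses translation, had -0.44 in PEF, 0.20 in PAFSC, -0.63 in 30AC5, -0.01 in PS24, 0.98 in iPSCs-w and 0.01 in iPF4-2, with iPSCs-w highest on this set and not on its other 2. EIF4G1, the main scaffold of eIF4F, had 0.04 in PEF, 1.74 in PAFSC, 0.43 in 30AC5, 0.99 in PS24, 0.85 in iPSCs-w and 0.74 in iPF4-2, so PEF was lowest and PAFSC highest. On its other set 30AC5 was lowest and iPSCs-w highest. EIF4G2, a shorter scaffold without the site for EIF4E, had 0.40 in PEF, 0.70 in PAFSC, -0.02 in 30AC5, -0.14 in PS24, -0.09 in iPSCs-w and 0.01 in iPF4-2, and EIF4G3 had 0.33 in PEF, 1.11 in PAFSC, -0.14 in 30AC5, -0.01 in PS24, -0.16 in iPSCs-w and 0.21 in iPF4-2. For EIF4G2 and EIF4G3 both somatic samples were above all 4 iPS lines, which 9.99% of all probe sets also showed and no other member did. The helicase EIF4A1 had -0.11 in PEF, -2.02 in PAFSC, -0.34 in 30AC5, -0.15 in PS24, 0.22 in iPSCs-w and 0.11 in iPF4-2, while its close relative EIF4A2 had -0.01 in PEF, 0.08 in PAFSC, -0.37 in 30AC5, -0.07 in PS24, -0.08 in iPSCs-w and 0.22 in iPF4-2, so that PAFSC was low for EIF4A1 and not for EIF4A2.

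Both measured regulators of initiation differed between arrays. EIF2AK2 (PKR), the kinase that double-stranded RNA activates, had values of 0.68 in PEF, -3.31 in PAFSC, -0.03 in 30AC5, 0.03 in PS24, -0.19 in iPSCs-w and 1.28 in iPF4-2, with iPF4-2 highest. EIF4EBP2, which keeps EIF4E from EIF4G, had -0.22 in PEF, 0.90 in PAFSC, 0.24 in 30AC5, -0.52 in PS24, -0.41 in iPSCs-w and 0.11 in iPF4-2, on the probe set with the highest mean of its 5, and the other 4 were all lower in PAFSC than in PEF. EIF5A, which helps stalled ribosomes and carries the rare amino acid hypusine, read -0.03 in PEF, 0.58 in PAFSC, 0.06 in 30AC5, -0.02 in PS24, 0.14 in iPSCs-w and 0.10 in iPF4-2, with PAFSC highest. On its other set PS24 was far down, at -2.55. EIF6, which keeps the subunits apart, read 0.08 in PEF, -0.30 in PAFSC, 0.09 in 30AC5, -0.04 in PS24, 0.31 in iPSCs-w and 0.03 in iPF4-2. EIF4A3, a part of the exon junction complex, read -0.53 in PEF, -1.38 in PAFSC, -0.07 in 30AC5, -0.34 in PS24, 0.16 in iPSCs-w and 0.07 in iPF4-2, with both somatic samples under the lines.

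The 6 eEF1 genes were all higher in the mean of the iPS lines than in the mean of the somatic samples, as 39.1% of all probe sets were. EEF1A1, which carries aminoacyl-tRNA to the ribosome, had values of -0.18 in PEF, -0.34 in PAFSC, 0.46 in 30AC5, 0.59 in PS24, -0.37 in iPSCs-w and -0.42 in iPF4-2, so both SSEA1-labelled lines were above every other array on this set. Its other 2 sets did not show that, and gave -4.23 and 0.46 in PAFSC. On the set with 0.46, both SSEA1-labelled lines were still above the other lines and PEF. Its exchange factor subunits were EEF1B2, EEF1D and EEF1G. EEF1B2 had -0.04 in PEF, -1.55 in PAFSC, 0.0036 in 30AC5, 0.06 in PS24, 0.03 in iPSCs-w and 0.05 in iPF4-2 and EEF1G had -0.02 in PEF, 0.06 in PAFSC, 0.12 in 30AC5, 0.06 in PS24, 0.06 in iPSCs-w and 0.02 in iPF4-2, both flat apart from EEF1B2 in PAFSC. EEF1D had -0.53 in PEF, -3.86 in PAFSC, -0.0046 in 30AC5, 0.26 in PS24, -0.09 in iPSCs-w and 0.0046 in iPF4-2, with PEF under the lines and PAFSC far under PEF. EEF1E1, a scaffold protein of the tRNA synthetase complex, had -1.54 in PEF, -2.93 in PAFSC, -0.14 in 30AC5, -1.48 in PS24, 0.26 in iPSCs-w and 0.14 in iPF4-2, where PS24 was as low as PEF. On its other set PS24 lay above PEF, at -0.45 against -0.80. EEF1AKMT1, an enzyme that methylates EEF1A, had -0.40 in PEF, -0.21 in PAFSC, 0.29 in 30AC5, -0.22 in PS24, 0.04 in iPSCs-w and -0.06 in iPF4-2, with PEF lowest, while its other set gave -4.38 in PAFSC.

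Comparing the 4 iPS lines with both somatic samples, limma called 6 of 23999 probe sets (0.025%) at an adjusted p under 0.05, and none was a member. An unadjusted p under 0.05 was reached by 5 ribosomal proteins and 6 factors, with 13.7% of all probe sets below it. The median difference was 0.41 over ribosomal proteins and 0.32 over factors, against -0.34 over all probe sets. It was above 0 for 47 of 59 ribosomal proteins and 28 of 41 factors (39.1% of all probe sets). All 4 lines lay above both somatic samples for 23 ribosomal proteins and 13 factors, where 11.9% of probe sets did so, and below both for 0 and 2. EIF4E, with its values given above, had the smallest adjusted p of the members at 0.317, for a difference of 2.85 (SE 0.97). RPL31 had a difference of 3.37 (SE 1.43, adjusted p = 0.358).

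How far these medians lay above that of all probe sets rested largely on PAFSC. The counts of positive differences, given below, did not fall without PAFSC. The share of all probe sets above 0 rose from 39.1% to 61.4%, however, so the counts stood out less. With PAFSC left out, the lines were compared with PEF alone, and the median was 0.14 over ribosomal proteins and 0.23 over factors, beside 0.14 over all probe sets. The factor median was 0.12 after quantile normalization, 0.089 over genes with 1 probe set and 0.072 without the 40% of probe sets lowest in mean. With PEF left out, the lines against PAFSC gave 14303 called probe sets (59.6%), among them 33 ribosomal proteins and 20 factors. Of these 28 and 16 were higher in the lines, a direction called in 20.7% of all probe sets, and 5 and 4 were lower, as 38.9% were. In that fit the lone PAFSC array was assumed to vary like the lines. For RPL22 the lines were 7.0 higher than PAFSC (SE 0.24, adjusted p = 0.000468) and for EIF4E 4.87 higher (SE 0.31, adjusted p = 0.000713). RPL12 differed by -5.45, on the probe set discussed above. Leaving out the 40% of probe sets with the lowest mean kept 18 ribosomal proteins and 15 factors and turned both medians, to -0.01 and -0.14, since the mean over 6 arrays is low for genes that are low in PAFSC.

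Against PEF alone, which was again assumed to vary like the lines, limma called 136 probe sets (0.567%) and none of the members. An unadjusted p under 0.05 was reached by 1 ribosomal protein and 2 factors (12.3% of all probe sets). The lone somatic array and the 4 lines are also part of the comparison before, so the results are not independent. The difference, iPS mean minus PEF, was above 0 for 49 of 59 ribosomal proteins and 33 of 41 factors (61.4% of all probe sets). All 4 lines were above PEF for 33 ribosomal proteins and 19 factors (32.4%) and below it for 3 and 2 (19.1%). PEF was the lowest of the 5 arrays for 14 of 23 small subunit and 16 of 31 large subunit proteins (32.4% of all probe sets). Most of these differences were small: over ribosomal proteins the median of 0.14 dropped to 0.06 when arrays were centred and to 0.04 after quantile normalization, and the count above 0 to 41 and 40.

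**Figure D4:**
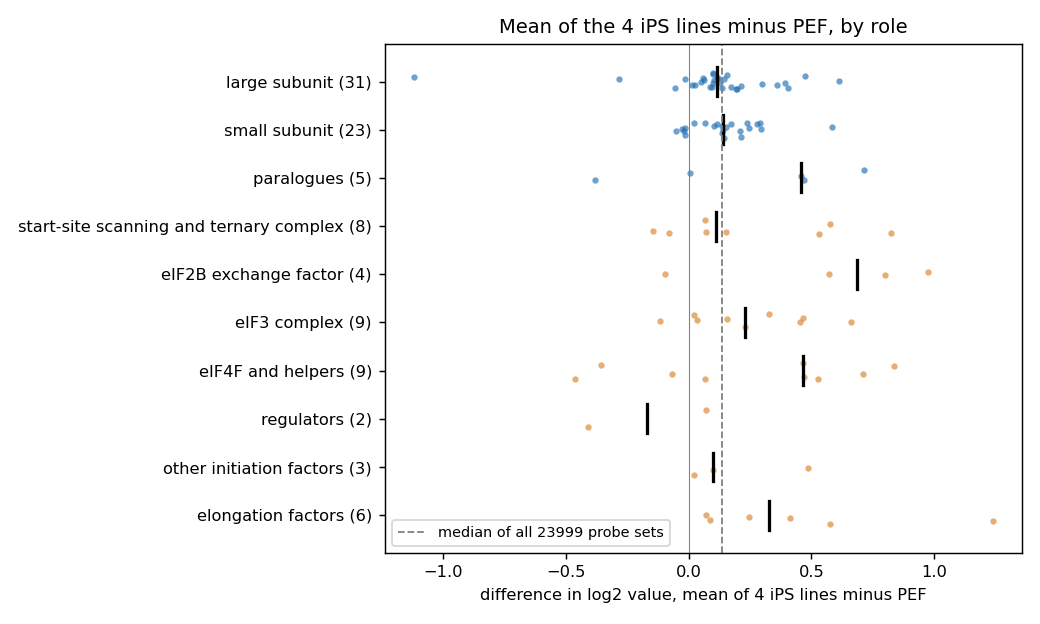
Difference in log2 value, mean of the 4 iPS lines minus PEF (horizontal axis), for every ribosomal protein (blue) and factor (orange) by role, with the median of each role as a black bar and the median of all 23999 probe sets as a dashed line. Core ribosomal proteins cluster around 0.12 to 0.14 near the dashed line, the eIF2B median is at 0.69 and the single genes reach from -1.12 for RPL37 to 1.24 for EEF1E1.

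EIF2B3 had the smallest adjusted p of the members against PEF, 0.227, for a difference of 0.97 (SE 0.25) that 4 of 4 lines shared. EIF4E was 0.84 higher (SE 0.31, adjusted p = 0.375) and RPL26L1 0.71 higher (SE 0.28, adjusted p = 0.395), also in 4 of 4 lines. EEF1E1 had the largest difference, 1.24, but with an SE of 0.71 because PS24 was at the level of PEF. EIF3H was 0.66 higher (SE 0.27), again in every line. Lower in all 4 lines were RPL37, by a difference of -1.12 (SE 0.75), and EIF4G2, by -0.46 (SE 0.24). RPL37 and EIF4G2 had adjusted p-values of 0.632 and 0.541. None of these genes passed the threshold.

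Between the classes of iPS lines, the SSEA1-labelled PS24 and 30AC5 were set against iPF4-2 and iPSCs-w with the 4 iPS arrays only. limma called 4 probe sets (0.0167%), and again 0 members. An unadjusted p under 0.05 was reached by 1 ribosomal protein and 2 factors (11.1% of all probe sets). Ribosomal proteins and factors leaned to opposite sides. The median difference, SSEA1-labelled minus the others, was 0.04 over ribosomal proteins and above 0 for 42 of 59, and it was -0.07 over factors and above 0 for 15 of 41, against 50.5% of all probe sets. Both SSEA1-labelled lines were above both others for 17 ribosomal proteins and 5 factors (21%), and below both for 6 and 13 (20.2%). Of 37 ribosomal proteins with 1 probe set, 8 had both SSEA1-labelled lines above both others and 24 had a difference above 0. Of the 22 with several probe sets, 9 and 18 did, so the ribosomal protein lean was weaker where no probe set was chosen. Without PS24 the median over ribosomal proteins was -0.01, so its direction rested on that line.

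RPS12 had the smallest adjusted p between the classes, 0.280, for a difference of -1.04 (SE 0.26), and its other probe set differed by -0.02. EEF1A1 was 0.92 higher in the SSEA1-labelled lines (SE 0.25, adjusted p = 0.310), and its other probe sets gave 0.57 and -0.82. EIF1AX was 1.45 higher (SE 0.46, adjusted p = 0.373), with -0.17 on its second probe set. These 3 differences therefore hold on the probe set used and not on every probe set of the gene. EIF2B1 and EEF1E1 were lower by differences of -1.12 and -1.01, both through low values in PS24 on the probe set used. Their other probe sets gave -0.23 and -0.49, with PS24 at 0.01 and -0.45. RPL37 was 1.09 higher in the SSEA1-labelled lines (SE 0.50).

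Lines of the same class also differed, although the label of PS24 names SSEA3 and SSEA4 too and that of 30AC5 does not. PS24 was above 30AC5 for 47 of 59 ribosomal proteins and 28 of 31 of the large subunit, where 56.2% of all probe sets were, with a median difference of 0.09 against 0.07 over all. PS24 was the highest of the 4 lines for 32 of 59 ribosomal proteins and 10 of 41 factors (29.9% of all probe sets). It also had the lowest 5' signal relative to 3' in the control genes, and the part of that was not tested. iPF4-2 and iPSCs-w differed less regularly, with iPF4-2 higher for 38 ribosomal proteins and 16 factors (50.8%). No ribosomal protein differed by more than 1 between PS24 and 30AC5, and 2, RPL37 and RPL7, did so between iPF4-2 and iPSCs-w (11.1% and 10.3% of all probe sets).

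Different probe sets of the same gene often disagreed. Of the 101 genes 38 had several probe sets, and the sign of PAFSC minus PEF differed among them in 21, of the iPS mean minus PEF in 9 and of the SSEA comparison in 23. RPS18, RPS27, EIF3M, EIF2B1 and EEF1AKMT1 each had 1 probe set above PEF in PAFSC and another more than 4 below it. Choosing the highest mean favours the probe set that is high in PAFSC. With the lowest mean instead, the median of PAFSC minus PEF was -1.29 over ribosomal proteins and -1.20 over factors.

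**Figure D5:**
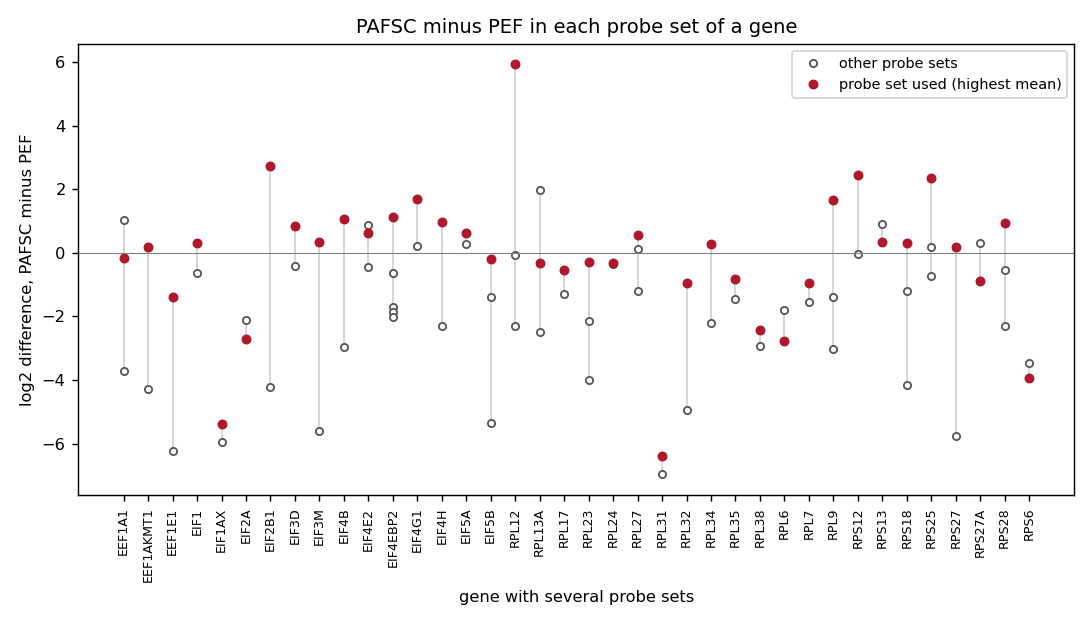
Difference in log2 value, PAFSC minus PEF (vertical axis), for each probe set of every ribosomal protein or factor gene with several probe sets (horizontal axis), with the probe set used filled and the others open, joined by a line per gene. The longest lines, such as that of RPL12 from -2.28 to 5.93, join probe sets of 1 gene on both sides of 0.

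Pairs of another kind disagreed in 8 ribosomal protein genes, RPL6, RPL12, RPL13A, RPL17, RPL23, RPL24, RPL32 and RPS6, and was picked out after the values were seen. Each has a pair of probe sets named for the same transcript cluster, which the array's naming marks A1 and S1, letters that stand for the antisense and the sense orientation of the cluster's sequence. In each pair one probe set varied little over the 5 arrays other than PAFSC, with an SD of 0.01 to 0.11, and the other had an SD of 0.22 to 0.48. The steadier set was A1 in 5 pairs and S1 in 3, so it did not follow the letters. RPL17 shows it: the probe set used had 1.11 in PEF, 0.58 in PAFSC, 1.26 in 30AC5, 1.83 in PS24, 0.58 in iPSCs-w and 1.56 in iPF4-2, while its partner stayed between -0.04 and 0.02 on those 5 arrays and was -1.30 in PAFSC. The more variable set was the one used here for 7 of the 8. On the more variable set iPSCs-w was the lowest of those 5 arrays in 8 of 8 pairs, and PS24 was the highest in 6. Which strand each set reads in these samples was not tested.

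The rest of the translation machinery gave no called gene against PEF either, but its lists differed in size. Of 24 measured ribosome assembly genes 22 were higher in the mean of the iPS lines, 20 with all 4 lines above PEF, where 61.4% and 32.4% of all probe sets were. The median difference was 0.71. FBL, which methylates ribosomal RNA, had values of -1.29 in PEF, -4.11 in PAFSC, -0.14 in 30AC5, -0.03 in PS24, 0.03 in iPSCs-w and 0.12 in iPF4-2 and a difference of 1.29 (SE 0.25, adjusted p = 0.138). Of 58 mitochondrial ribosomal proteins 52 were higher (61.4% of all probe sets), with a median of 0.52. MRPS27 had values of -1.19 in PEF, -3.0 in PAFSC, 1.38 in 30AC5, 0.69 in PS24, 0.46 in iPSCs-w and 0.60 in iPF4-2, the largest difference of that list at 1.97 (SE 0.42, adjusted p = 0.158). These medians compare with 0.14 for the cytosolic ribosomal proteins, and the difference between the lists was not tested.

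Of 7 genes of the integrated stress response, the program that follows eIF2 phosphorylation, 5 were lower in the mean of the iPS lines than in PEF, with a median of -0.88, and ATF4 and PPP1R15B were higher, by 0.21 and 0.49. All 4 lines were below PEF for 4 of the 7 (19.1% of all probe sets). DDIT3 (CHOP), a transcription factor of that response, had values of 1.69 in PEF, 1.65 in PAFSC, 1.08 in 30AC5, -0.93 in PS24, 0.33 in iPSCs-w and -0.33 in iPF4-2, a difference of -1.66 (SE 0.76, adjusted p = 0.471), and both somatic samples were above all 4 lines. Of 15 aminoacyl-tRNA synthetases 10 were higher and 5 lower in the lines, with a median of 0.14. Among 6 other ribosomal proteins outside the symbol rule 5 were higher, with a median of 0.06, and RPLP0, the base of the stalk, was the exception at 0.69 in PEF, 1.99 in PAFSC, -0.59 in 30AC5, 0.45 in PS24, -1.01 in iPSCs-w and -0.49 in iPF4-2. Of 7 mTOR pathway genes and 6 genes of termination and the nascent chain, 5 were higher in each list, with medians of 0.28 and 0.15.

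Ribosomal RNA was seen only through control probe sets, and it has no poly(A) tail, from which labelling for such arrays usually starts. The 5S probe set read -0.88 in PEF, 1.07 in PAFSC, 0.82 in 30AC5, 2.04 in PS24, 0.89 in iPSCs-w and 1.67 in iPF4-2, so PEF was lowest. One 28S probe set read 1.90 in PEF, 2.87 in PAFSC, 3.02 in 30AC5, 2.56 in PS24, 3.57 in iPSCs-w and 2.79 in iPF4-2, with PEF again lowest. The other 28S probe set read 1.31 in PEF, 1.8 in PAFSC and 2.04 to 2.32 in the lines, so all 4 lines were above both. An 18S probe set read -0.40, 1.85, 0.07, 0.46, -0.28 and 0.09 in the same order of arrays, with PEF lowest and PAFSC highest. The other 18S probe set had 30AC5 lowest, at 2.02, and PAFSC highest, at 3.42.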

How the data were processed

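Per the labels, total RNA of each sample was hybridised to 1 Affymetrix Pig Genome Array. The table that the authors deposited holds log2 values of 24123 probe sets for 6 arrays and 0 empty cells. Not given in the sources used here: software, normalization, genome build and the baseline behind each probe set's zero. The 124 array controls were left out, and 23999 probe sets were tested. The platform annotation gave 10069 of them 1 gene symbol, 198 several and 13732 none. Of the 101 genes 100 were found by gene ID in the RefSeq table of Sscrofa11.1, with 0 under another symbol. EIF2S2 was not.

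The values were tested as deposited in R 4.3.3 with limma 3.58.1 (functions lmFit and eBayes). Tests were two-sided, and p-values were adjusted by Benjamini-Hochberg across the 23999 probe sets with a threshold of 0.05. Residual degrees of freedom were 4 for iPS lines against somatic samples, 3 against PEF alone and 2 between the SSEA classes. PEF and PAFSC were set side by side as values, and no test was run on their difference. The script was tested on simulated data. Genes, lists and comparisons were chosen with earlier results of these data known. Named genes were, per role, any past the threshold, otherwise up to 3 with the highest and 3 with the lowest difference per comparison, and every eIF2B subunit, regulator, paralogue and elongation factor. Others are said to be chosen after their values were seen. Alternatives were quantile normalization, median centring, leaving out the 40% of probe sets with the lowest mean, a trended or a robust eBayes (with statmod 1.5.0), other choices of the probe set, a fit with 3 classes and leaving out each array. Genes with 1 probe set only, all alternatives for the range over arrays, and the lowest-mean and most variable probe sets for PEF against PAFSC were added after seeing the data.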

Additional observations from a re-analysis of the deposited data

Results flagged for a closer look

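In each of 75 gene or list values checked over the 4 iPS lines, the gap of the highest or lowest line to its nearest neighbour was set against the whole range, with Dixon's limit for 4 values. Chance alone passes that limit in about 1 of 20 groups. Of the 75, 5 passed it. RPL26, a large subunit protein, was 0.479 in PS24 against -0.25 to -0.22 in the other lines. EIF2AK2, the kinase PKR, was 1.28 in iPF4-2 against -0.19 to 0.03. EIF3K was -0.191 in iPSCs-w, below lines between -0.01 and 0.02. EIF2B3 was -0.0674 in iPF4-2 against 0.10 to 0.12, and RPL19 was 0.0138 in PS24 against -0.02 to -0.01.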

How the results depend on the processing

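No member was called in any comparison under any alternative run, except in the lines against PAFSC without PEF, with 33 ribosomal proteins and 20 factors. With 2 to 4 residual degrees of freedom and a single array for most labels, small differences could not be called. Some large ones, such as that of RPL31 against the somatic samples, were not called either. The lack of calls therefore does not show that members were equal. Each probe set's brightness is unknown, so precision could not be tied to signal. No paired analysis was possible because no label pairs the arrays.

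For iPS lines against somatic samples, leaving out 1 array gave 0 to 14303 called probe sets, medians of 0.14 to 0.72 over ribosomal proteins and 0.23 to 0.39 over factors, 0 to 33 ribosomal proteins and 0 to 20 factors called. The count of called probe sets was 2 with a trend, 35 without the lowest 40% by mean and 1 after median centring. The ribosomal protein median was -0.014 without the lowest 40%, 0.71 after centring, 0.58 with a gene's probe sets averaged, 0.64 with the most variable and 0.76 with the lowest. The factor median was -0.14, 0.61, 0.84, 0.97 and 0.93 in the same order, and 0.83 over genes with 1 probe set. Without the lowest 40%, 8 of 18 ribosomal proteins and 6 of 15 factors lay above 0. That filter removes genes that are low in PAFSC.

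Between the SSEA classes, 0 probe sets were called with any line left out, with 3 classes on 6 arrays or after quantile normalization. The count was 2 with the robust setting, 8 with a trend, 58 without the lowest 40%, 2 after centring and 48 with a gene's probe sets averaged. The ribosomal protein median was -0.0054 to 0.061 with a line left out and 0.21 without the lowest 40%, and the factor median was -0.13 to -0.066 with a line left out and -0.15 with the lowest-mean probe set. EEF1A1 turned to -0.82 and EIF1AX to -0.17 with the lowest-mean and the most variable probe set.

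Against PEF, 0 to 19 probe sets were called with a line left out and 17 after quantile normalization. The ribosomal protein median was 0.11 to 0.15 with a line left out, 0.18 without the lowest 40%, 0.059 after centring, 0.045 after quantile normalization, and 0.10 with the lowest-mean probe set or with genes of 1 probe set. For factors it was 0.21 to 0.32, 0.072, 0.15, 0.12 and, with genes of 1 probe set, 0.089.

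For PAFSC minus PEF, the ribosomal protein median was -0.55 after quantile normalization, -1.42 after centring, -0.91 with a gene's probe sets averaged, -1.29 with the lowest-mean, -1.27 with the most variable and -0.87 with genes of 1 probe set. For factors it was -0.24, -0.91, -0.75, -1.20, -1.20 and -0.62. Ribosomal proteins lower by over 1 numbered 37 after centring, 34 with the lowest-mean and 33 with the most variable probe set, and factors 4 after quantile normalization and 21 with either of these probe sets. A range under 0.5 was kept by 14 ribosomal proteins and 3 factors with PAFSC included, by 5 factors after quantile normalization, and by 44 ribosomal proteins and 16 factors without PS24. Causes other than those named were not tested.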
